A study of Mus musculus with 2 samples.

Results

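The core circadian clock genes are described here in the liver of apoE-KO mice, from 6 microarrays. The 10 genes were Arntl (also called Bmal1), Clock, Npas2, Cry1, Cry2, Per1, Per2, Per3, Nr1d1 (REV-ERBα) and Nr1d2 (REV-ERBβ), chosen by symbol among the 27962 gene names of the array. They were read by 18 probes, 5 of the genes by a single probe and 5 by several. All mice were male, of the C57BL/6 strain and deficient in apoE, and were 10 weeks old when they received either normal chow or the same chow with 1.25% Chol (high-Chol diet) for 1 week. Each diet was measured on 3 one-colour arrays, called NC1, NC2 and NC3 for normal chow and HC1, HC2 and HC3 for the high-Chol diet, from 3 independent experiments. No mice with an intact Apoe gene were measured, and the probe for Apoe gave log2 values of 1.66 to 3.81 for normal chow and 3.18 to 3.57 for the high-Chol arrays. The mice were kept under a light-dark cycle, and the time of day at which the livers were taken is not given in the sources used here.

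The clock of a mammalian cell is a feedback loop of transcription. ARNTL pairs with CLOCK or with its relative NPAS2 and activates genes that carry an E-box, among them the Per, Cry and Nr1d genes. The PER and CRY proteins then inhibit that activator, and the REV-ERB proteins repress Arntl, Npas2 and other genes with a ROR response element, which the ROR receptors activate. In mouse liver the transcripts of Arntl and Npas2 therefore peak at a time of day when those of the Nr1d and Per genes are low, so a level at a single time point depends on the hour at which the liver was taken.

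The promoter sequences that carry these elements are shown because the members are known to answer to them. They were read from the RefSeq promoter table of build GRCm38.p6, which covers the bases just before and after each start site and has an entry for 9 of the 10 genes, all except Per2. Capitals mark the matches on either strand to the E-box CACGTG, the E-prime box CACGTT (read as AACGTG on the other strand), the ROR element core TAGGTCA and the D-box forms TTATGTAA and TTATGCAA, which the PAR bZIP factors and NFIL3 bind. Each line is written 5′ to 3′ on the strand of the gene.
Per1, chr11:69098771-69098944, plus strand: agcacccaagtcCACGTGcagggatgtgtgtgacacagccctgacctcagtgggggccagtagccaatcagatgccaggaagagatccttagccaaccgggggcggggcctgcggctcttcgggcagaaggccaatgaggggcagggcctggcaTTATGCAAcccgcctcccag
Per3, chr4:151044804-151044882, minus strand: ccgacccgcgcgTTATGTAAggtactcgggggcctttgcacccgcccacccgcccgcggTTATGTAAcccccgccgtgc
Cry1, chr10:85185097-85185145, minus strand: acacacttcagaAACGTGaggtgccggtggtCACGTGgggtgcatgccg
Cry2, chr2:92434218-92434247, minus strand: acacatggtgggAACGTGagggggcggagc
Nr1d1, chr11:98775388-98775417, minus strand: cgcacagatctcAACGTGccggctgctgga
Arntl, chr7:113207530-113207559, plus strand: aaggcagaaagTAGGTCAgggacggaggtg
The Per1 window held an E-box and a D-box, and that of Per3 held 2 D-boxes. Cry1 had an E-box beside an E-prime box, and Cry2 and Nr1d1 had an E-prime box each. For Arntl the ROR element core lay downstream of the start site of the second of its 2 listed promoters. The windows of Clock, Npas2 and Nr1d2 held none of these letters. Over all 32851 promoters of the table, 7.15% held the E-box, 4.68% the E-prime box, 2.61% the ROR element core, 0.938% the form TTATGTAA and 0.743% the form TTATGCAA. The matches describe these windows and do not show that a factor was bound there.

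Each array was read as the brightness of its spots, given here on the log2 scale, with the 75th percentile of the same array set to 0, so that a difference of 1 is a change of 2-fold. Arrays were assigned to slides by the scan time in the file headers, which is not a slide label. By that time NC1, NC2, NC3 and HC1 lay on slide 1, while HC2 and HC3 lay on slide 2. Slide 2 had a 75th percentile of 762 to 799 against 271 to 374 on slide 1. Its files also came from another version of the Feature Extraction software. Slide and diet thus cannot be fully told apart, and with slide as a block HC1 alone carries the difference from normal chow. Among the high-Chol arrays, HC3 stood apart in the clock genes: 7 of the 10 members on HC3 lay within the range of the normal chow arrays, Npas2 among them with a dim probe on all of these. In bulk liver, fewer cells of a type and less RNA per cell cannot be told apart. Of the 10 genes, 9 had a probe that was well above background on every array of 1 diet or of both, and these were tested with limma among 16727 genes. Npas2 did not pass and was not tested.

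Across the members, Arntl and Clock had a higher mean, and Per1, Per2, Per3, Cry2 and Nr1d2 a lower mean, on the high-Chol arrays than on normal chow, by up to 5.48-fold for Arntl and 3.98-fold for Per2. With the normexp background the log2 differences were smaller, 0.94 in place of 2.45 for Arntl, -1.02 in place of -1.99 for Per2 and -0.72 in place of -1.54 for Per3. Cry1 and Nr1d1 had lower means with overlapping diets, and that of Nr1d1 turned in sign under other settings. Of the 9 genes tested, 2 had a higher and 7 a lower mean, with a median log2 difference of -0.97, beside -0.02 over all 16727 genes. Among the 7, Per3 passed the filter through normal chow alone and was dim on HC1. With the filter on all 6 arrays, 8 members were tested, 2 higher and 6 lower, with a median of -0.66, beside -0.07 over all genes. None of the 9 genes passed limma's test at an adjusted p under 0.05, where 2.69% of all genes were called higher and 0.227% lower. Before adjustment, limma gave 6 genes a p under 0.05, of which Arntl and Clock (2) were higher and Cry2, Per1, Per2 and Nr1d2 (4) were lower, beside 12.3% of all genes higher and 8.83% lower. The methods' t-test gave 2, Cry2 and Nr1d2, at an unadjusted p under 0.05, where 8.29% of all genes were lower at that threshold, and 0 after adjustment. The diets did not overlap for 3 members, Cry2, Per1 and Nr1d2, each lower on all 3 high-Chol arrays, where 14.0% of all genes were lower and 11.9% higher without overlap. An exact permutation test on 3 against 3 arrays cannot give a two-sided p below 0.1, which is the value of these 3 genes.

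**Figure D1:**
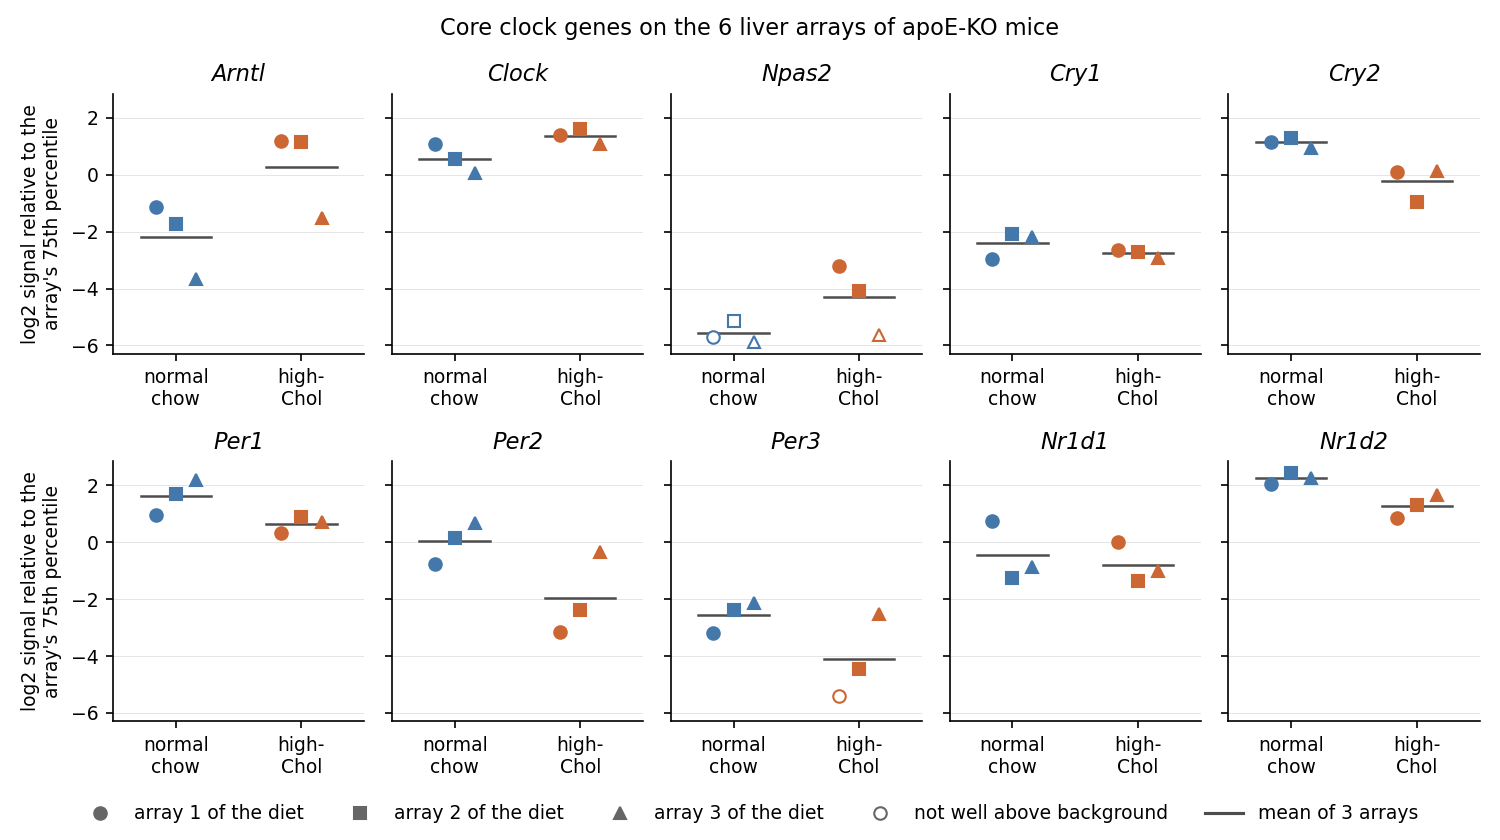
Log2 signal of the 10 core clock genes (75th percentile of the array set to 0), with 1 point per array (circle, square and triangle for the arrays 1, 2 and 3 of a diet), open where the probe was not well above background, and a line at the mean of 3 arrays. For Arntl, Npas2, Per2 and Per3 the triangle of the high-Chol diet, HC3, sits among the normal chow points, while Cry2, Per1 and Nr1d2 show no overlap between the diets.

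Arntl, the partner that every activator complex of the clock requires, was read by a probe at chr7:109229489-109229548 (mm7, plus strand). Its log2 signal was -1.12, -1.71 and -3.67 on NC1, NC2 and NC3, and 1.19, 1.17 and -1.51 on HC1, HC2 and HC3. HC1 and HC2 were above every normal chow array, whereas HC3 lay between NC1 and NC2. The mean was higher on the high-Chol diet by a log2 difference of 2.45 (standard error 0.90, limma adjusted p = 0.195). Without HC3 the difference was 3.35 (limma adjusted p = 0.106), and without HC1 it was 2.00 (limma adjusted p = 0.209). The lowest value with 1 array left out was 1.70, without NC3 (limma adjusted p = 0.385). With slide as a block the difference was 3.36 (limma adjusted p = 0.499).

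Clock encodes the usual partner of ARNTL, with a brightest probe at chr5:76144675-76144734 (mm7, minus strand). This probe gave 1.09, 0.54 and 0.08 for normal chow and 1.41, 1.61 and 1.08 for the high-Chol arrays. The ranges met only at NC1 and HC3, which differed by less than 0.05. The log2 difference of 0.80 (standard error 0.28) had a limma adjusted p of 0.188. A further probe for Clock gave a difference of 0.63. The remaining probes were not well above background on NC1 and on 5 of 6 arrays, respectively. The latter gave -0.69, which is no measured difference, and none is given for the former.

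Npas2 encodes the paralog that can take the place of CLOCK. Its probe gave -5.71, -5.13 and -5.87 on the normal chow arrays, none of them well above background. On HC1 and HC2 it was well above background at -3.20 and -4.09, and on HC3, at -5.65, it was not. With 4 of 6 arrays dim, no difference is given for Npas2. HC1 and HC2, the arrays with the highest Arntl, were also those on which Npas2 could be measured.

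Per1 is a period gene that light and hormones can induce. Normal chow gave 0.95, 1.70 and 2.20, and the high-Chol diet gave 0.34, 0.88 and 0.73. All 3 high-Chol arrays were below all 3 normal chow arrays, with the nearest pair, NC1 and HC2, less than 0.1 apart. The log2 difference was -0.97 (standard error 0.33, limma adjusted p = 0.173). It was -0.68 without NC3 and -1.30 without NC1.

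Per2, a period gene whose product inhibits the activator together with CRY, had the lowest difference between diets among the members. Its brightest probe (chr1:91323914-91323973, mm7, minus strand) gave -0.75, 0.15 and 0.69 for normal chow and -3.15, -2.40 and -0.34 for the high-Chol arrays. HC1 and HC2 were below every normal chow array, and HC3 lay between NC1 and NC2. The log2 difference was -1.99 (standard error 0.72, limma adjusted p = 0.192), which placed Per2 20th from the lowest among the 16727 genes. Over the fits that left out 1 array it ran from -2.81 without HC3 (limma adjusted p = 0.0583) to -1.4 without HC1 (limma adjusted p = 0.194), and a slide block gave -3.18 (limma adjusted p = 0.317). The other probe for Per2, at chr1:91347406-91347465 (mm7), gave -1.05, -1.27 and -1.11 for normal chow and -1.67, -2.17 and -2.24 for the high-Chol arrays. On that probe the diets did not overlap, HC3 was the lowest array, and the difference was -0.88 (limma adjusted p = 0.0713 among all probes). The probes therefore shared the direction and differed in the place of HC3.

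Per3, a further period gene, had values of -3.20, -2.37 and -2.15 on NC1, NC2 and NC3. The high-Chol arrays had -5.39, which was not well above background, then -4.44 and -2.52. The order of arrays was that of Per2, with HC1 lowest and HC3 within the normal chow range. Its log2 difference of -1.54 (standard error 0.69) had a limma adjusted p of 0.252, and it was -0.91 without HC1, the dim array. Per3 passed the filter on dim probes through the normal chow arrays alone.

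Cry2, a cryptochrome that represses the activator, had signals of 1.16, 1.31 and 0.94 for normal chow and 0.11, -0.95 and 0.14 for the high-Chol arrays. HC3 was here as low as HC1, so that every high-Chol array was below every normal chow array. Its log2 difference of -1.37 (standard error 0.31) had the smallest adjusted p among the members (limma adjusted p = 0.0728). The value passed the threshold with median scaling (-1.61, limma adjusted p = 0.0475), with a trended and robust variance prior (limma adjusted p = 0.0431) and without HC1 (-1.54, limma adjusted p = 0.026). The share of all genes called lower was then 0.436% with median scaling and 0.532% with that variance prior, and it rose to 4.56% without HC1, where 760 genes were called lower and 2314 higher. Over all alternatives its limma adjusted p ran from 0.026 to 1, the latter with the normexp background. Its other probe was not well above background on NC1 and HC1 and gave a difference of -0.18.

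Cry1, the other cryptochrome, had overlapping diets on its brightest probe, with -2.96, -2.06 and -2.19 for normal chow and -2.66, -2.70 and -2.92 for the high-Chol arrays. The log2 difference was -0.36 (standard error 0.26, limma adjusted p = 0.427). Its other probe was not well above background on NC1 and gave -3.10 and -3.63 on NC2 and NC3, and -4.19, -2.76 and -3.06 on the high-Chol arrays. The measured arrays of the diets overlapped on both probes, and no direction is given for Cry1.

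Nr1d2, which encodes REV-ERBβ, had 2.05, 2.45 and 2.25 for normal chow and 0.84, 1.33 and 1.65 for the high-Chol arrays. The diets did not overlap, HC1 was lowest and HC3 was nearest to normal chow. The log2 difference was -0.97 (standard error 0.24, limma adjusted p = 0.0922), and it passed the threshold with median scaling (-1.21, limma adjusted p = 0.0245) and without HC1 (-0.76, limma adjusted p = 0.0429). The share of all genes called lower was 0.436% with median scaling and 4.56% without HC1. Over all alternatives the limma adjusted p of Nr1d2 ran from 0.0245 to 1.

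Nr1d1, which encodes REV-ERBα and overlaps the gene Thra, had another order of arrays than Arntl, Per2 or Nr1d2. Its brightest probe had 0.77, -1.24 and -0.88 for normal chow and 0.02, -1.36 and -1.004 for the high-Chol arrays. NC1 was the highest array, HC1 was next, and the remaining arrays of both diets overlapped. The log2 difference was -0.33 (standard error 0.58, limma adjusted p = 0.752) with a 95% interval of -1.69 to 1.03. It turned to 0.28 without NC1 and to 0.47 with slide as a block. The other probes for Nr1d1 gave -0.36 and -0.28, with overlap between the diets.

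**Figure D2:**
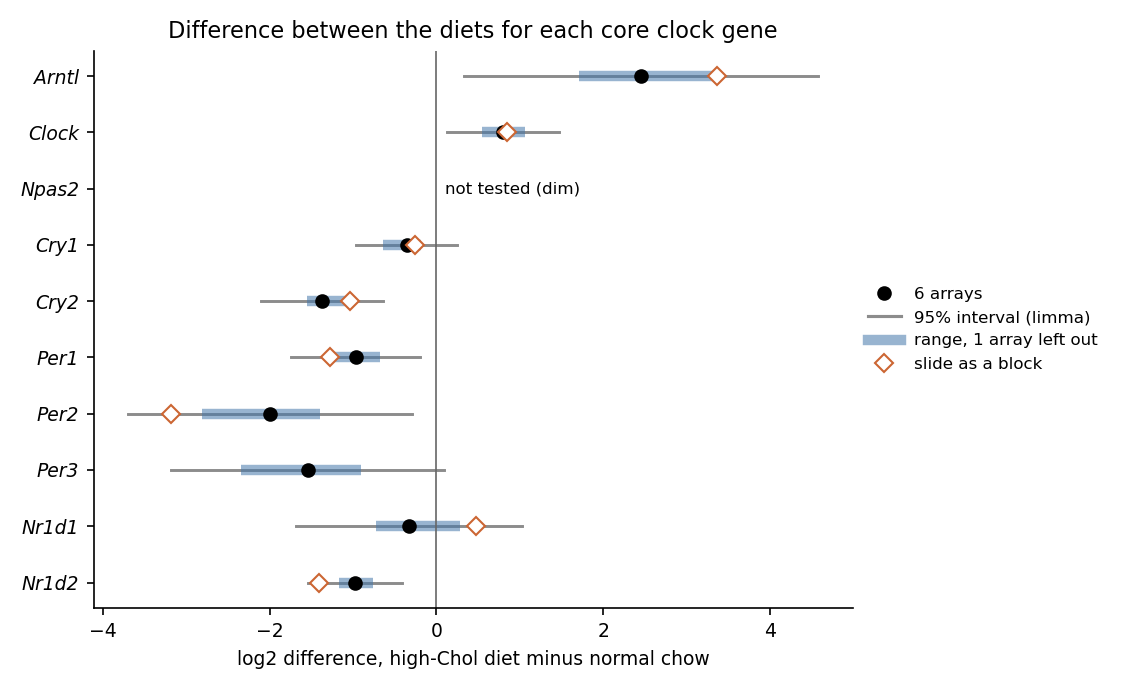
Log2 difference between the diets (high-Chol diet minus normal chow) for each member, with the 95% interval from limma (grey line), the range over the 6 fits that leave out 1 array each (blue bar) and the value with slide as a block (diamond); Npas2, dim on 4 of 6 arrays, has no value here, and Per3, dim on HC1, has no diamond. Arntl and Clock stay above 0 and Cry2, Per1, Per2 and Nr1d2 below 0 in all these fits, whereas Nr1d1 crosses 0. Per3, which passed the filter through normal chow alone, stays below 0 in the fits that leave out 1 array.

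The slide block, which sets HC1 against the normal chow arrays of the same slide, gave 0.84 for Clock, -0.26 for Cry1, -1.03 for Cry2, -1.28 for Per1 and -1.41 for Nr1d2, and the limma adjusted p of the 9 members was then between 0.12 (Nr1d2) and 0.878 (Nr1d1). The limma adjusted p under any alternative was at the lowest 0.106 for Arntl and 0.0583 for Per2, and for both it was 1 with the normexp background.

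The clock genes also varied more among arrays of the same diet than most genes. The median SD over the members was 0.56 for normal chow and 0.62 for the high-Chol arrays, beside 0.20 and 0.25 over all genes, on the log2 scale. The SD within diets of Arntl exceeded that of 99.7% of the genes tested, that of Per2 99.3%, of Per3 99.1% and of Nr1d1 97.6%. Clock, Cry1, Cry2, Per1 and Nr1d2 lay between 65.9 and 83.9%. These shares are for the brightest probes, and that of Per3 includes HC1, where it was not well above background. The other probe for Per2 had an SD of only 0.115 for normal chow and 0.31 for the high-Chol arrays. The other probes for Nr1d1 had 0.444 and 0.267 for normal chow and 0.317 and 0.414 for the high-Chol arrays. The members with the largest differences between diets thus included those with the widest spread within a diet.

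Several members moved against each other from array to array, and not only between the diets. From the lowest to the highest Arntl signal the arrays ran NC3, NC2, HC3, NC1, HC2 and HC1, and the signals of Per2 and Per3 ran in exactly the reverse order over all 6 arrays. This holds for the brightest probe of Per2 and not for its other probe, and the lowest Per3 value, on HC1, was not well above background. Arntl was nearly equal on HC1 and HC2, at 1.19 and 1.17, so the order of HC1 and HC2 is not firm. Within normal chow alone, NC1 was above NC3 by 2.54 in Arntl and below it by 1.45 in Per2, 1.24 in Per1 and 1.05 in Per3. Within the high-Chol diet, HC1 was above HC3 by 2.70 in Arntl, and below it by 2.81 in Per2 and 0.81 in Nr1d2, and Per3 on HC1 was dim. Nr1d1 instead ran with Arntl between the same arrays, by 1.65 in normal chow and 1.03 in the high-Chol diet. On its other probe Per2 also ran with Arntl, since NC1 was above NC3 and HC1 above HC3. Per1 was highest on HC2 within the high-Chol diet, and Nr1d2 was highest on NC2 within normal chow, so neither followed the reverse of Arntl inside both diets. Of the members measured on every array, the brightest probe of Per2 did, with HC1 and HC2 nearly tied in Arntl.

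The mean of Arntl and Npas2 minus the mean of the Per and Nr1d genes, each gene centred on its own mean, was -0.85, -1.02 and -2.66 on NC1, NC2 and NC3. On HC1 and HC2 it was 3.00 and 2.27, and on HC3 it was -0.74, above NC1 by about 0.1. The group means were -1.51 ± 1.00 and 1.51 ± 1.98 (SD, n = 3), with no test because the score is built from the members. The difference between the diets of 3.02 fell to 0.77 with the normexp background. Npas2 was not well above background on 4 of the 6 arrays, and with Arntl alone in its place the score was -0.55, -1.32 and -3.56 on NC1, NC2 and NC3 and 3.20, 2.90 and -0.68 on HC1, HC2 and HC3. Nr1d1 did not take part in this order, with a Pearson's r to Arntl of 0.13 over the 6 arrays.

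**Figure D3:**
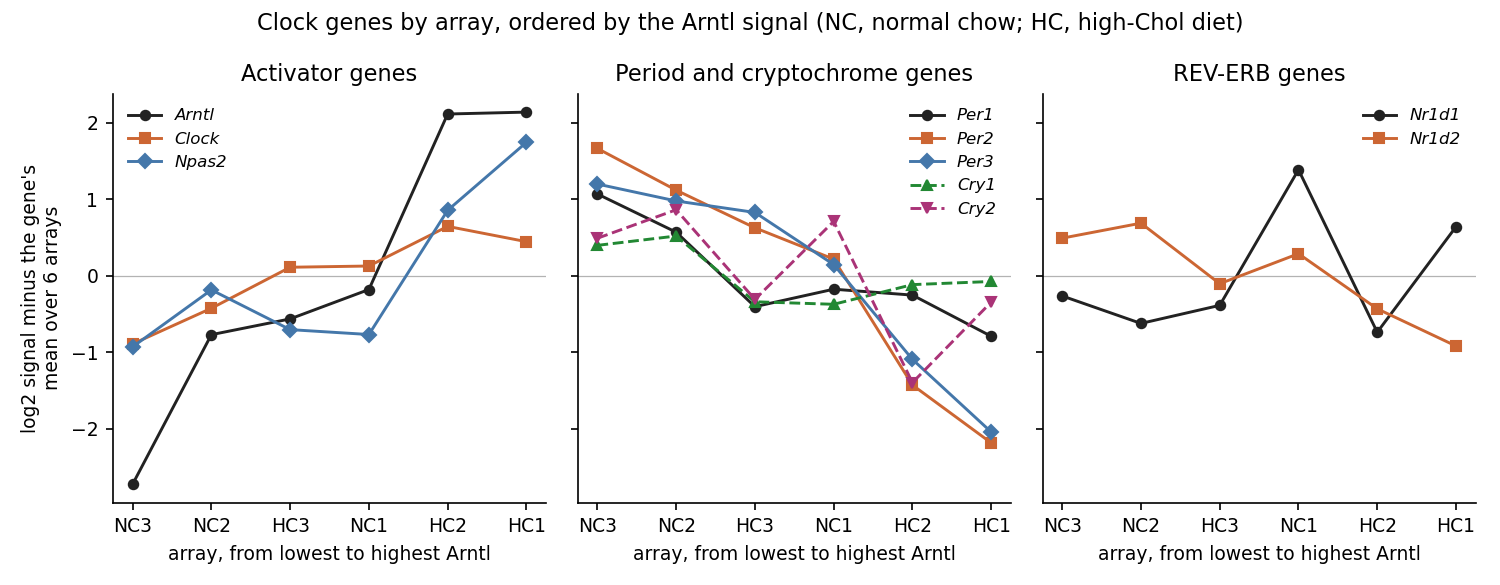
Log2 signal of each member minus its own mean over the 6 arrays, with the arrays on the x axis from the lowest to the highest Arntl signal (NC, normal chow; HC, high-Chol diet). Arntl climbs from -2.73 on NC3 to 2.14 on HC1 while Per2 descends from 1.66 to -2.19; Nr1d1 follows neither.

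Pattern likeness was described by Pearson's r over the 6 arrays of both diets, among 2163 genes that were well above background on every array and had an SD of at least 0.5. Among the genes most like Arntl were Fst (r = 0.98) and 9930021J17Rik, Clpx and Cdkn1a (0.97 each), and Clock ranked 10th at 0.94. Those most opposed were Slc5a6 (r = -0.99), Alas1 (-0.99), Slc20a1 (-0.99), Klf1 (-0.97) and Tbl2 (-0.97), and Per2 was 8th from the lowest at -0.96. Alas1 encodes the first enzyme of heme synthesis in liver, and Cdkn1a encodes the cell cycle inhibitor p21. The genes most like Nr1d1 were TC1447684, Slc26a6, Mterfd3, Sdro and Itga5 (r = 0.94 to 0.98). Those most opposed to Nr1d1 were Dusp1, 3110098I04Rik, Vnn1, Olfr457 and Slc16a7 (r = -0.96 to -0.94). All of these values share the same 6 libraries.

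Outside the core loop, the PAR bZIP factors Dbp, Tef and Hlf, which bind D-boxes and are activated through E-boxes, were lower for 3 of 3 genes at an unadjusted p under 0.05, beside 8.83% of all genes, with a median log2 difference of -1.80 and none called after adjustment. Dbp gave 6.57, 6.49 and 6.80 for normal chow and 0.86, 0.87 and 5.64 for the high-Chol arrays. HC1 and HC2 were nearly equal and far below the rest, and HC3 was below normal chow by less than 1. The log2 difference of Dbp was -4.17 (standard error 1.21, limma adjusted p = 0.134), and without HC3 it was -5.76 (limma adjusted p = 0.000867), in a fit that called 0.0957% of all genes lower. It was -3.37 without HC1 (limma adjusted p = 0.115) and -3.37 without HC2 (limma adjusted p = 0.405). Tef differed by -1.80 (limma adjusted p = 0.164), by -2.54 without HC3 (limma adjusted p = 0.027) and by -1.39 without HC1 (limma adjusted p = 0.153). Hlf differed by -1.06 (limma adjusted p = 0.184).

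Ciart (Gm129 on the array), a repressor of the ARNTL and CLOCK complex, gave -0.32, 0.61 and 1.13 for normal chow, -7.28 and -5.79 for HC1 and HC2, neither well above background, and -0.52 for HC3. It passed the filter on dim probes through normal chow alone, and no difference is given because 2 of its 3 high-Chol values are no measured levels. Its promoter, shown for its 3 E-boxes, held more of them than those of Per1 and Cry1, with 1 each.
Ciart, chr3:95882255-95882356, minus strand: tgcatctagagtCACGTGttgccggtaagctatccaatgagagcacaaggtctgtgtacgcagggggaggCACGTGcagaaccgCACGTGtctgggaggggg
Bhlhe40, a further E-box repressor, differed by -0.32 (limma adjusted p = 0.402), and Bhlhe41 was too dim to test.

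Nfil3, a repressor at D-boxes, was the 1 gene of its list above normal chow at an unadjusted p under 0.05. The list had 3 tested genes, and 12.3% of all genes were higher at that threshold. Nfil3 gave 1.98, 2.89 and 1.56 for normal chow and 3.26, 3.53 and 2.70 for the high-Chol arrays, so that HC3 overlapped. The log2 difference was 1.02 (limma adjusted p = 0.194). Its promoter holds the ROR element core on the strand opposite the gene.
Nfil3, chr13:52981040-52981063, minus strand: ggcgctcggaacTGACCTActaac
The ROR receptor gene Rora differed by -0.36 (limma adjusted p = 0.373), and Rorb was too dim to test.

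Clock-controlled output genes numbered 6 tested, with 2 lower at an unadjusted p under 0.05 (Usp2 and Alas1) beside 8.83% of all genes, none called after adjustment, and a median of -0.76. Usp2, which encodes a ubiquitin-specific protease, gave 1.46, 2.60 and 3.16 for normal chow and -2.19, -1.83 and 1.18 for the high-Chol arrays, without overlap. Its log2 difference was -3.36 (limma adjusted p = 0.114), and it ran from -4.42 without HC3 (limma adjusted p = 0.0335) to -2.74 without HC1 (limma adjusted p = 0.089), with an adjusted p of 0.371 without HC2. Alas1 differed by -1.74 (limma adjusted p = 0.182). Elovl3, a fatty acid elongase, differed by 1.66 in the other direction (limma adjusted p = 0.272).

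The genes that act on clock proteins after translation stayed closer to 0. Of the 9 kinase, phosphatase and ubiquitin ligase genes tested, among them Csnk1d, Csnk1e, Gsk3b and Btrc, 0 passed an unadjusted p under 0.05 by limma, with a median of -0.09 and differences from -0.49 to 0.13. Over all genes, 12.3% were higher and 8.83% lower at that threshold. Values were missing for Csnk1a1 on HC2 and for Ppp1cb on HC2 and HC3, where spots were marked as outliers, so that Ppp1cb rests on HC1 alone for the high-Chol diet. Btrc was called lower when HC1 was left out (-0.88, limma adjusted p = 0.0119), with 4.56% of all genes called lower in that fit. Timeless and Tipin, named as partners, differed by -0.10 and -0.04, and Arntl2 was not well above background on any array.

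**Figure D4:**
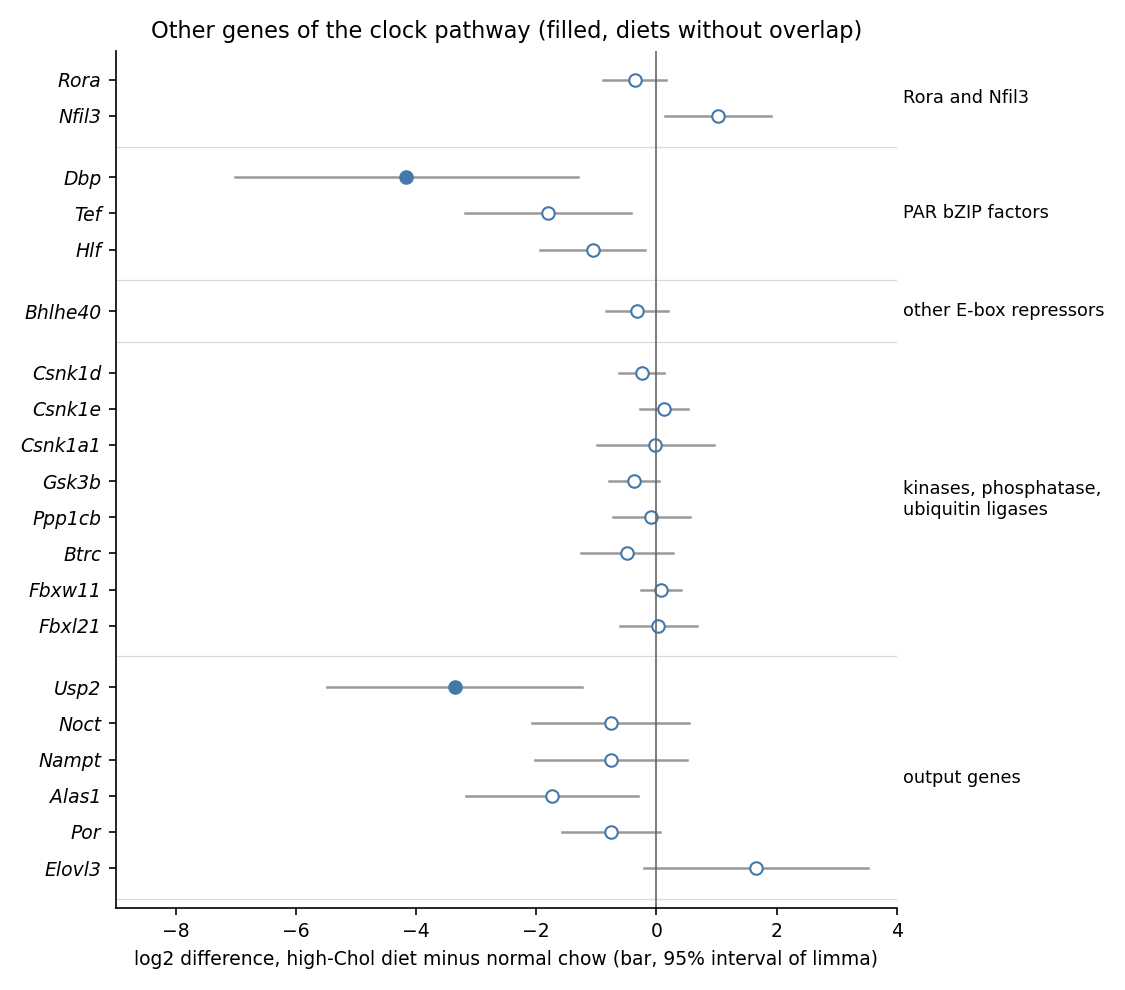
Log2 difference between the diets for tested genes of the pathway lists, with the 95% interval from limma as a bar and filled points for genes whose diets do not overlap. Ciart, dim on HC1 and HC2, is not drawn. Dbp and Usp2 are filled and lie below -3, while the kinases, phosphatase and ubiquitin ligases cluster within 0.5 of 0.

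Other conditions that shift clock genes in liver were described by their own gene lists. Among glucocorticoid-induced genes, Fkbp5 was lower without overlap by -1.92 (limma adjusted p = 0.152), and Sgk1, which had no value on HC2, differed by 0.91 (limma adjusted p = 0.16). These were the 2 of 6 genes with an unadjusted p under 0.05 there, beside 12.3% of all genes higher and 8.83% lower. Of 7 heat shock and temperature genes, Hsph1 was lower by -0.71 without overlap (limma adjusted p = 0.116). Among 7 fasting genes, G6pc and Pdk4 were higher by 1.19 and 1.18 and Cpt1a, Angptl4 and Pck1 differed by -0.89, -0.87 and -0.35, all 5 without overlap, as for 11.9% of all genes higher and 14.0% lower, with limma adjusted p-values of 0.104, 0.151, 0.0779, 0.253 and 0.293. Median log2 differences were -0.24, -0.10 and -0.18 for these 3 lists, and their part in the clock values was not tested.

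Markers of other cell types also moved with diet. The hepatocyte markers were present on every array, and their summed signal, as a multiple of the 75th percentile, was 1260 to 1400 for normal chow and 997 to 1050 for the high-Chol arrays. None of their 6 genes was called by limma, and Ttr was higher and Apoa1 lower at an unadjusted p under 0.05. Macrophage and Kupffer cell markers were higher for 8 of 8 genes, where 7998 of all 16727 genes had a higher mean. Of the 8, 3 were called (Cd68, Cd5l and Lyz2), beside 2.69% of all genes called higher. The 8 markers had a sum of 154 to 186 on normal chow and 351, 477 and 499 on HC1, HC2 and HC3. Adgre1 had no value on HC2. Of 4 neutrophil markers S100a8 and S100a9 were called higher, with sums of 1.44 to 1.59 and of 8.99 to 15.2, while Ngp and Camp were not well above background on any array. T and B cell marker sums were 0.614 to 0.731 and 0.632 to 1.09, with 0 of 4 tested genes called by limma. Of these, 1, Cd3g, was higher at an unadjusted p under 0.05. Cd3g was dim on NC1 and passed the filter through the high-Chol arrays alone, where it was high. Over all genes, 12.3% were higher and 8.83% lower at that threshold. Endothelial sums were 7.42 to 9.37 and 9.56 to 10.3 (0 of 4 called, 1 higher unadjusted), and cholangiocyte sums 1.1 to 1.24 and 0.855 to 1.13 (0 of 4 called, 1 lower unadjusted). Stellate cell sums were 2.69 to 3.63 and 5.03 to 5.29, with 1 of 4 genes, Col1a1, called higher, beside 2.69% of all genes. Col3a1 was higher by 0.82 without overlap (limma adjusted p = 0.0763). Lrat differed by -0.16 and Des by 0.44, both with overlap between the diets. HC3 was the highest of the high-Chol arrays in the macrophage sum and the lowest in the neutrophil sum. The part of these cell types in the clock values was not tested.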

How the data were processed

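Per the labels and the methods, liver RNA was copied into Cy3-labeled cRNA and hybridized to one-colour Agilent arrays. The deposited scanner files hold, for each of 6 arrays, the spot intensity as background-subtracted by Agilent Feature Extraction (9.1 in the submitters' processing notes; 9.5.1.1 for slide 1 and 9.1.1.1 for slide 2 in the file headers). The authors also deposited 1 log2 value per probe and diet from Gene Spring GX, whose differences between diets followed those of the scanner values with a slope of 1.00, shifted by -0.24.

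The log2 intensity was taken minus the 75th percentile of the non-control spots of each array, without outlier spots (75 to 196 on an array). Probes had to be well above background on every array of 1 diet or of both, and a gene was represented by its brightest probe. Differences were fitted with lmFit and eBayes (limma 3.58.1, R 4.3.3) over 16727 genes, with Benjamini-Hochberg adjustment and a threshold of 0.05. Overlap between diets was counted on the 16435 genes with all 6 values. Precision is limited by the number of arrays, and since these are labelled only as repeats, p-values measure the spread between them. The fit was first tested on simulated data.

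The named genes are the 10 members, the genes of the pathway, condition and cell marker lists, and the 5 genes with the highest and lowest r to Arntl and to Nr1d1. The members and lists were chosen with earlier results of these data known. Serpina1a, Zbtb16 and Hspa1b were not matched to the array, and some single genes of these lists are not reported here. Alternatives were a normexp background (offset 50), median scaling, quantile normalization, a dim-probe filter on no or on all 6 arrays, single probes, averaged probes, the methods' t-test, a slide block, a variance prior that was trended and robust, the authors' table and the omission of each array in turn. Plots were drawn with matplotlib 3.10.9.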

Additional observations from a re-analysis of the deposited data

How the results depend on the processing

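Arntl and Clock were higher and Cry2, Per1, Per2 and Nr1d2 lower on the high-Chol diet under every alternative computed on probes that passed the filter (a dim probe of Clock gave -0.69). Per3 was lower wherever it had a value, but it passed the filter through normal chow alone. It had no value with the filter on all 6 arrays or in the authors' table. Cry1 took 0.22 with averaged probes and 0.79 on its other probe, both resting on NC1, where that probe was dim. Nr1d1 turned to 0.47 with slide as a block and, over the arrays left out, ranged from -0.73 to 0.28. The count of members called by limma, 0 here, was 2 with median scaling (Cry2 and Nr1d2) and 1 with a trended and robust variance prior (Cry2), and it ranged from 0 to 2 when 1 array was left out; the 2 were Cry2 and Nr1d2 without HC1, where 760 of all genes were called lower and 2314 higher. The count of other pathway genes called, also 0, was 1 with median scaling (Usp2), 1 with every probe by itself, and 0 to 4 without 1 array; the measured 3 of the 4 without HC3 were Dbp, Tef and Usp2, since Ciart then had no high-Chol array above background. The count of members without overlap, 3 here, was 2 with the normexp background (1 higher, 1 lower), beside 3.15% of all genes higher and 1.55% lower. With averaged probes the count was 5 (1 higher, 4 lower), beside 12.3% higher and 12.9% lower. Without 1 array it was 3 to 8, with 8 reached without NC1 (2 higher, 6 lower) and 7 without HC3 (2 higher, 5 lower). Over all genes 16.2% were then higher and 23.3% lower without overlap in the fit without NC1, and 14.5% and 19.2% without HC3. The median difference of the members was -0.36 with every probe by itself and -1.07 to -0.68 without 1 array. The difference between diets in the score of Arntl and Npas2 against the Per and Nr1d genes, 3.02 here, was 0.77 with the normexp background (the cause was not tested) and 2.27 to 4.14 without 1 array. Among all genes, 450 were called higher and 38 lower; the counts were 331 and 73 with median scaling, 0 and 0 with the normexp background, and 11 and 0 with slide as a block. The median of all genes moved from -0.02 to -0.26 with median scaling. With the normexp background, 1 member had an unadjusted p under 0.05, and the unadjusted count was 2 to 7 without 1 array. No paired analysis was possible because the labels give the 3 arrays of each diet as 1 sample and do not say which array file is which repeat; the numbers in NC1 to HC3 only name arrays. On arrays where the probes of Npas2, Per3, Ciart or the other probe of Cry1 were not well above background, their values are no measured levels.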
